A study of Mus musculus with 6 samples.

Results

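MHC class II molecules show peptides from endosomes to CD4+ T cells, and this account describes the mouse genes that build, load and switch on that route. The members, a set picked with earlier results of these data known, were taken by gene name as the rows of the deposited count table named H2-Aa, H2-Ab1, H2-Eb1, H2-DMa, H2-DMb1, H2-DMb2, H2-Oa, H2-Ob, Cd74 and Ciita, which are 10 of the 57010 genes in the table. The data were 6 RNA-seq libraries of primary neonatal mouse cardiomyocytes (NMCMs), cultured from hearts of C57BL/6 mice aged 1 to 3 days and separated from cardiac fibroblasts by differential adhesion. All 6 were kept under hypoxia (HO). The HO + Vehicle group held 3 libraries (V1, V2 and V3), and the HO + β-SITO group held 3 (T4, T5 and T6) that also received β-sitosterol (β-SITO), a plant sterol; these are called vehicle and β-SITO libraries. The β-SITO dose and the hours of hypoxia behind these libraries are not given in the sources used here, no normoxic library was used, and the labels do not say whether replicates came from separate cultures, so p-values measure only the spread between these libraries.

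The classical class II molecule of this strain, I-A, pairs an α chain (H2-Aa) with a β chain (H2-Ab1), while H2-Eb1 encodes the β chain of the second class II molecule, I-E. New pairs are held by the invariant chain (Cd74), which carries them to endosomes and blocks the groove until proteases cut it away. There the chaperone H2-M (H2-DMa with H2-DMb1 or H2-DMb2) exchanges the last invariant chain fragment for peptide, and H2-O (H2-Oa with H2-Ob) restrains H2-M. Ciita encodes the transactivator that docks on an assembly of RFX, CREB and NF-Y proteins at the X and Y boxes of class II promoters, and interferon-γ induces it through JAK kinases and IRF1. Class II is typical of dendritic cells, B cells and activated macrophages, and cardiomyocytes are not known as a main site of its expression.

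The promoters show what these genes share in sequence. RefSeq promoter windows of 250 bases before to 50 after a gene start (GRCm38.p6) were used for 7 members in 8 windows. H2-Ab1 and Ciita had no entry. Cd74 was left out of the member windows by choice, so the counts over the 8 windows do not cover it. The letters were chosen with these sequences in view and searched on both strands. The Y box core GATTGG was found in 7 of the 8 windows and in 16.1% of all 32851 windows. The X box letters, AAC and ATGATG with any pair of bases between them, were found in 4 of the 8 and in 0.137% of all windows. TGACGTCA, the cyclic AMP response element that CREB binds, was found in 1 of the 8 and in 1.79% of all windows. The stretches around the Y box are printed for the 6 members that carry it within 100 bases of the start, so that the boxes of genes that fell and genes that did not can be compared. Capitals mark the X letters or TGACGTCA on the left and the Y core on the right, on the strand of the gene.
H2-Aa: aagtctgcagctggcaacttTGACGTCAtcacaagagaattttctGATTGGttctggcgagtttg
H2-Eb1: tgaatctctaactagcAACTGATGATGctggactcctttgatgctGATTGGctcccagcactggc
H2-DMb1: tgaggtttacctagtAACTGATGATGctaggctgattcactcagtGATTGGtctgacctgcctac
H2-DMb2: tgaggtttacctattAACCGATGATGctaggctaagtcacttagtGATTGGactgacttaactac
H2-Ob: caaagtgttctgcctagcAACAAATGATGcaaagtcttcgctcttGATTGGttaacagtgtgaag
H2-Oa: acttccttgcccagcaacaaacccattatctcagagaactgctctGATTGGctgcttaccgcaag

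These stretches lie at chr17:34287853-34287917 on the minus strand for H2-Aa and, on the plus strand, at chr17:34305762-34305826 for H2-Eb1, chr17:34153084-34153148 for H2-DMb1, chr17:34145113-34145177 for H2-DMb2, chr17:34238802-34238866 for H2-Ob and chr17:34092290-34092354 for H2-Oa. Between the left and right capitals lay 16 to 19 bases in the 5 genes with both. The stretches of H2-DMb1 and H2-DMb2 were the same at 56 of 65 bases. H2-Oa held neither left-hand motif in its window. As the counts below show, genes with these letters included some whose counts were lower in the β-SITO libraries (H2-Aa, H2-Eb1) and others with a smaller difference (H2-DMb1), with no detectable difference (H2-Ob) or with more counts (H2-DMb2). Counts of H2-Oa, which lacks a left-hand motif, were also lower. H2-Ob, H2-DMb2 and H2-Oa were too low for the main test, and whether the letters go with the change was not tested.

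The class II members together took a small share of the counts in all 6 libraries. The libraries held 16694734 to 18460522 counts, and the 10 members together took 664, 688 and 627 of them in V1, V2 and V3 and 277, 274 and 309 in T4, T5 and T6. As CPM (counts scaled to the same total in every library, here without normalisation factors) that is 39.2 ± 2.29 in the HO + Vehicle group and 16.0 ± 0.960 for β-SITO (SD, n = 3), 2.45 times less, with no overlap between the groups (two-sided exact permutation test, p = 0.1, the smallest that 3 against 3 libraries allow). Genes of the class I route, a list of 12 genes for class I heavy chains, their light chain, peptide supply and the transactivator Nlrc5, took 9674 ± 296.9 CPM against 1503 ± 79.7 (SD, n = 3; exact permutation test, p = 0.1). Class I counts were thus 239.9 to 258.3 times the class II counts in the vehicle libraries and 86.4 to 106.3 times in the β-SITO libraries. In bulk libraries, fewer cells of a type and less RNA per cell cannot be told apart.

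Gene by gene, values are given as CPM normalised with edgeR's TMM method. The log2 fold change, β-SITO over vehicle (log2FC), comes from edgeR's quasi-likelihood test over 14799 tested genes with Benjamini-Hochberg adjustment. A differentially expressed gene (DEG) had an adjusted p under 0.05 and more than a 2-fold change, the threshold of the study. Of the 10 members, 7 were tested. As DEGs, 5 of these were lower with β-SITO, against 10.1% of all tested genes, and none was higher, against 12.8% (22.8% in either direction). The other 2 tested members, H2-DMa and H2-DMb1, passed the adjusted p but not the 2-fold limit. At any fold, 33.8% of tested genes were lower by adjusted p and 33.0% were higher. The share among the members is no support by itself, because H2-Aa and Ciita passed the filter on low counts only through the vehicle libraries, where they were high. The other 5 tested members passed it in both groups, and 3 of these, H2-Ab1, H2-Eb1 and Cd74, were DEGs. H2-DMb2, H2-Oa and H2-Ob were too low to test. In TMM-normalised CPM, every β-SITO library lay below every vehicle library for 8 of the 10 members, a pattern that 35.8% of all tested genes showed. H2-DMb2 was the reverse. The separation of H2-DMb1 did not hold with library size alone. In either direction 70.5% of tested genes did not overlap between the groups, so separation alone was common in these libraries.

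**Figure D1:**
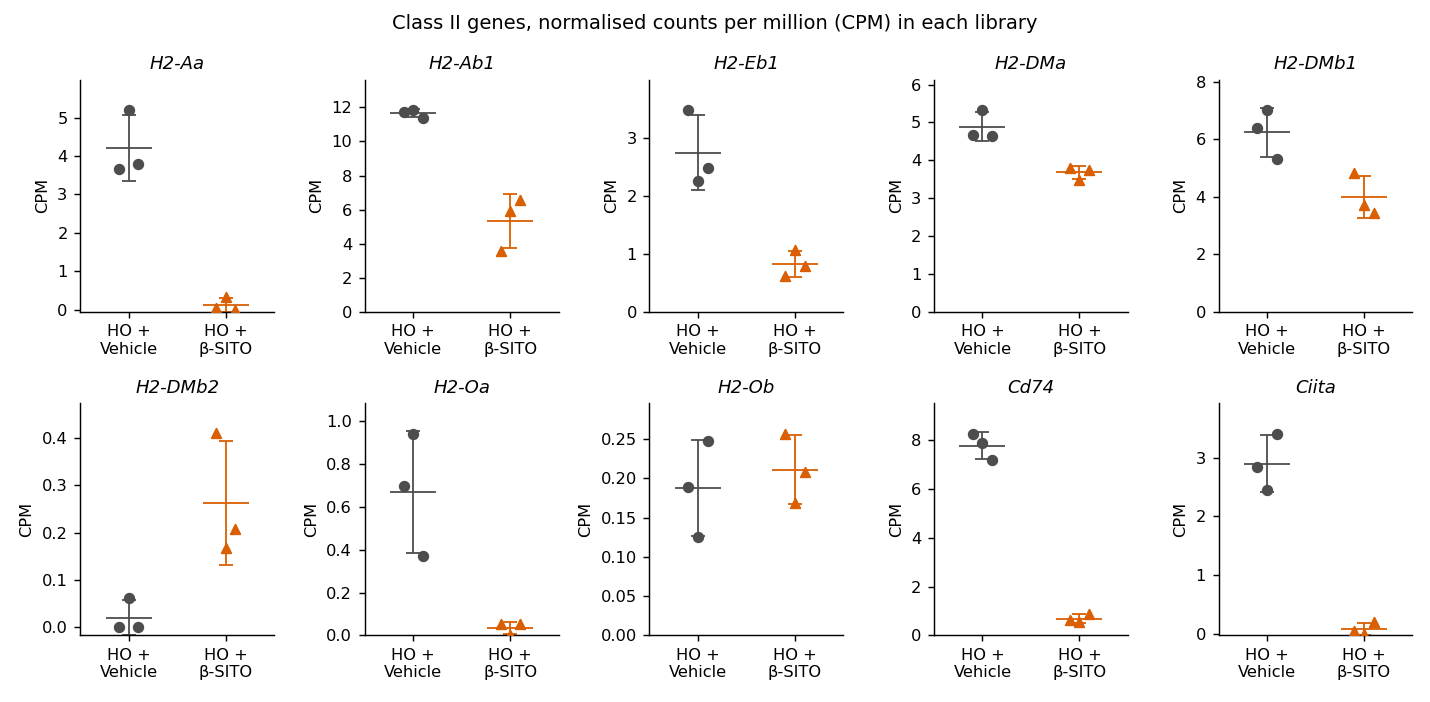
Normalised CPM (vertical axes, each with its own scale) of the 10 class II genes in the HO + Vehicle (circles) and HO + β-SITO (triangles) libraries, with the group mean (bar) and SD (whiskers, n = 3). The groups stand apart for every gene but H2-Ob, and H2-DMb2 is the gene whose β-SITO libraries are the higher ones.

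The transactivator, the invariant chain and the I-A α chain had the largest fold changes among the tested members. Ciita (ENSMUSG00000022504, chr16:10297923-10346282, GRCm39 per the labels) had 45, 39 and 55 counts in V1, V2 and V3 and 1, 0 and 4 in T4, T5 and T6. Its level was 2.90 ± 0.485 CPM against 0.0865 ± 0.108 CPM (SD, n = 3), so the β-SITO libraries were at or near 0. Its log2FC was -4.93, SE 0.46 (edgeR's quasi-likelihood test, adjusted p = 1.65e-07). With so few counts the size is imprecise, and the ratio of the summed counts, 139 against 5, was 32.8 with a 95% interval of 13.7 to 102.5 (exact conditional, counting error only). Ciita overlaps Dexi, a gene on the opposite strand, by 25888 bases, and the strand setting of the counting is not given in the sources used here. Dexi had 123 to 153 counts in the vehicle libraries and 208 to 243 in the β-SITO libraries, the direction opposite to that of Ciita.

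Cd74, the invariant chain (ENSMUSG00000024610, chr18:60936920-60945724), had 131, 126 and 116 counts in the vehicle libraries and 12, 10 and 17 in the β-SITO libraries. Its level fell from 7.79 ± 0.551 to 0.688 ± 0.173 CPM (SD, n = 3). This was a log2FC of -3.48, SE 0.20 (edgeR, adjusted p = 6.04e-10). The libraries within each group lay close together and far from those of the other group. With 10 or more counts in each of the 6 libraries, its SE was smaller than those of H2-Aa and Ciita.

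The chains of I-A changed by unequal amounts. H2-Aa, the α chain (ENSMUSG00000036594, chr17:34501718-34506797), had 58, 83 and 61 counts in the vehicle libraries but 1, 6 and 0 in T4, T5 and T6. The log2FC was -5.01, SE 0.46 (edgeR, adjusted p = 1.21e-07), from 4.22 ± 0.857 to 0.130 ± 0.182 CPM (SD, n = 3), and summed counts gave a ratio of 34.0 (95% interval 16.2 to 85.7, counting error only). H2-Ab1, the β chain (ENSMUSG00000073421, chr17:34476663-34488393), kept 69, 105 and 126 counts in T4, T5 and T6 against 186, 189 and 184 in V1, V2 and V3. It fell from 11.7 ± 0.233 to 5.34 ± 1.58 CPM (SD, n = 3). This was a log2FC of -1.13, SE 0.17 (edgeR, adjusted p = 2.54e-05).

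The DEG call of H2-Ab1 rested on T4, the lowest library. Without T4 its log2FC was -0.90, and it also stayed under 2-fold with upper quartile scaling (-0.99) or library size alone (-0.98). In these alternatives its adjusted p remained under 0.05. Tested against a 2-fold change with glmTreat, it did not pass (adjusted p = 0.427). T4 was also the β-SITO library with the lowest summed level of cardiomyocyte markers, 5181 CPM against 8750 in T5 and 8823 in T6. Its summed level of macrophage markers was the highest of the β-SITO libraries, 3795 CPM against 3111 in T5 and 3092 in T6. The part of either in the H2-Ab1 value was not tested. Within each library the α to β ratio of I-A, per kilobase of exon and with 0.5 counts added, was -2.24, -1.75 and -2.15 on the log2 scale in V1, V2 and V3 and -6.10, -4.59 and -8.55 in T4, T5 and T6. The groups did not overlap, and this ratio does not depend on scaling between libraries (exact permutation test, p = 0.1, the smallest possible). The ratio was added after the counts had been seen, with 3 others, and the adjusted p over the 4 was also 0.1.

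H2-Eb1, the I-E β chain (ENSMUSG00000060586, chr17:34524841-34535648), had 55, 36 and 40 counts in the vehicle libraries and 12, 19 and 15 in the β-SITO libraries. It fell from 2.74 ± 0.648 to 0.822 ± 0.228 CPM (SD, n = 3), with log2FC -1.74, SE 0.28 (edgeR, adjusted p = 5.42e-05). Its α chain partner H2-Ea and the related H2-Eb2 had 0 counts in all 6 libraries, where 3 counts would come to at most 0.189 CPM. C57BL/6 mice are known to carry a defect in H2-Ea, so they make no I-E on the cell surface. Relative to H2-Ab1, H2-Eb1 was lower by 0.54 on the log2 scale in the β-SITO libraries than in the vehicle libraries (exact permutation test, p = 0.1). The groups did not overlap, but V2 (-1.97) and T5 (-2.03) lay close together, on 36 and 19 counts of H2-Eb1. Cd74 was lower by 2.30 relative to H2-Ab1, with no overlap (exact permutation test, p = 0.1). Both ratios are among the 4 added after the counts had been seen (exact permutation test, adjusted p = 0.1).

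The H2-M chaperone genes kept most of their transcripts. H2-DMa (ENSMUSG00000037649, chr17:34338515-34358075) had 74, 85 and 75 counts in the vehicle libraries and 74, 62 and 72 in the β-SITO libraries. Its level was 4.88 ± 0.385 against 3.68 ± 0.170 CPM (SD, n = 3). The log2FC of -0.41, SE 0.15, stayed under 2-fold (edgeR, adjusted p = 0.0285). That p was over 0.05 with DESeq2 (adjusted p = 0.0983), upper quartile scaling (0.143), library size alone (0.151) or no count filter (0.0509). It was also over 0.05 without V1, V2, V3, T5 or T6 (0.0506 to 0.112), so the H2-DMa difference was not firm. With glmTreat, which tests against a 2-fold change, a log2FC of this size could not pass. H2-DMb1 (ENSMUSG00000079547, chr17:34372046-34379204) had 101, 112 and 86 counts against 94, 66 and 66, or 6.24 ± 0.854 against 3.99 ± 0.739 CPM (SD, n = 3). The log2FC of -0.64, SE 0.17, passed the adjusted p but not the 2-fold limit (edgeR, adjusted p = 0.00356). For both genes the TMM-normalised CPM of the groups did not overlap, although V1 and T4 held the same 74 counts of H2-DMa in libraries of different size. For H2-DMb1 this depended on the scaling. V3 held 86 of 17082129 counts and T4 held 94 of 18460522, so by library size alone V3 lay below T4.

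H2-DMa overlaps Brd2 on the opposite strand by 3094 bases. Brd2, which encodes a chromatin reader, had 5104 to 5361 counts in the vehicle libraries and 3140 to 3472 in the β-SITO libraries, and whether any of its reads were counted for H2-DMa was not tested. The ratio of H2-DMa to H2-DMb1 within a library overlapped between the groups (difference 0.24 on the log2 scale, per kilobase, exact permutation test, p = 0.2). H2-Ab1 fell relative to H2-DMa by 0.77 with no overlap (exact permutation test, p = 0.1) and relative to H2-DMb1 by 0.53 with overlap (exact permutation test, p = 0.3). These 3 ratios had an adjusted p of 0.3 each, and without T4 the change relative to H2-DMa was -0.48 and that relative to H2-DMb1 was -0.11.

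H2-DMb2, the second H2-M β chain gene (ENSMUSG00000037548, chr17:34362281-34370529), went the other way at very low counts, with 0, 1 and 0 in the vehicle libraries and 8, 3 and 4 in the β-SITO libraries. The summed counts, 1 against 15, gave a ratio of 12.7 with a 95% interval of 1.96 to 535.9 (exact conditional, counting error only). Without the filter on low counts its log2FC was 3.28 with an SE of 1.17 (edgeR, adjusted p = 0.0146 over 26597 genes), where 8.68% of all genes were DEGs higher. H2-DMb1 and H2-DMb2 are near-identical copies in parts. Of the 50-base windows in the GENCODE transcripts of H2-DMb2, 21.2% also occur in H2-DMb1, and 4.14% of its 150-base windows do, so some reads of either gene could be assigned to the other.

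The genes of H2-O were at the limit of detection. H2-Oa (ENSMUSG00000024334, chr17:34311314-34314208) had 11, 15 and 6 counts in the vehicle libraries and 1, 0 and 1 in the β-SITO libraries. The summed counts, 32 against 2, gave a ratio of 18.9 (95% interval 4.81 to 162.4, counting error only), and without the filter its log2FC was -3.98 with an SE of 0.80 (edgeR, adjusted p = 3.12e-06 over 26597 genes, where 7.16% were DEGs lower). H2-Ob (ENSMUSG00000041538, chr17:34457877-34473388) had 3, 2 and 4 counts against 5, 3 and 4. The groups overlapped, the ratio of HO + β-SITO to HO + Vehicle was 1.13 (95% interval 0.438 to 3.04, counting error only), and a difference was not detectable at this depth.

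The order of the members changed between the groups. The order within a group depends in part on the annotated exon lengths, while a change between groups does not. Per kilobase of exon, with exon lengths from GENCODE vM21, the vehicle libraries had Cd74 (4.64 CPM per kilobase) and H2-Ab1 (4.54) at the top, and these did not differ beyond their spread. H2-DMb1 (3.71) followed, then H2-DMa (1.42), H2-Eb1 (1.41) and H2-Aa (1.11), of which neighbours overlapped, then H2-Oa (0.475) and Ciita (0.304), which also overlapped, and last H2-Ob and H2-DMb2. In the β-SITO libraries H2-DMb1 (2.37 CPM per kilobase) and H2-Ab1 (2.08) led with overlapping ranges. H2-DMa (1.07) came next, then H2-Eb1 (0.423) and Cd74 (0.410), which overlapped, followed by H2-DMb2. H2-Ob, H2-Aa, H2-Oa and Ciita were all under 0.04 on average, and each overlapped its neighbour in this order, while the ranges of H2-Ob and Ciita did not overlap. Among 14637 tested genes with a length, Cd74 lay at the 49.7th percentile of level per kilobase in the HO + Vehicle group and at the 9.54th in the HO + β-SITO group, and H2-DMb1 at the 44.4th and the 33.9th.

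**Figure D2:**
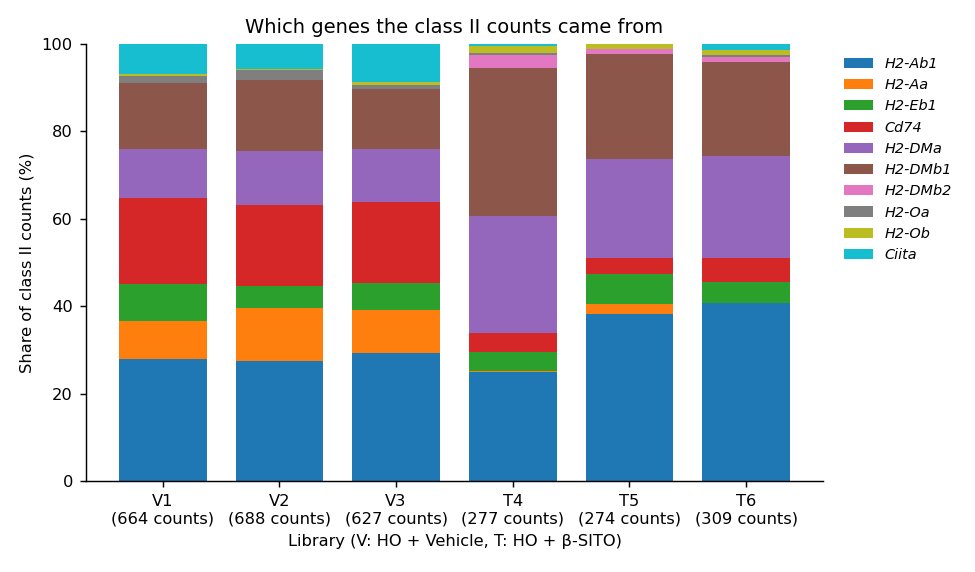
Share (%) of all counts of the 10 class II genes that came from each gene, in each library, with the summed class II counts under each bar. H2-DMa and H2-DMb1 made up 25.7% to 28.6% of the class II counts in the vehicle libraries and 44.7% to 60.6% in the β-SITO libraries, while Cd74 went from 18.3% to 19.7% down to 3.65% to 5.50%.

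What remained of class II in the β-SITO libraries was therefore made up differently. H2-DMa with H2-DMb1 gave 26.9% ± 1.55 of the class II counts in the HO + Vehicle group and 50.7% ± 8.70 for β-SITO (SD, n = 3; exact permutation test, p = 0.1). The share of Cd74 went from 18.8% ± 0.769 to 4.49% ± 0.937 (SD, n = 3; exact permutation test, p = 0.1). That of H2-Ab1 was 28.3% ± 0.965 and 34.7% ± 8.54 (SD, n = 3), with T4 below and T5 and T6 above the vehicle libraries (exact permutation test, p = 0.4).

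Of the 10 members, 8 lie within 224.3 kb of chromosome 17 (34311314 to 34535648), and neighbours there changed by unequal amounts. The window also holds 5 protein-coding genes that are no members, all tested. Of these, 4 belong to the class I route and lie between H2-DMb1 and H2-Ob. They were Psmb9 (log2FC -4.93) and Psmb8 (-4.42), subunits of the immunoproteasome, and Tap1 (-5.01) and Tap2 (-3.50), the peptide transporter. Each of the 4 was a DEG lower with β-SITO (edgeR, adjusted p of 1.18e-15 or lower). Brd2, the fifth, had a log2FC of -0.88, under 2-fold (edgeR, adjusted p = 1.59e-09). H2-Aa, at -5.01, stood between H2-Ab1 at -1.13 and H2-Eb1 at -1.74.

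**Figure D3:**
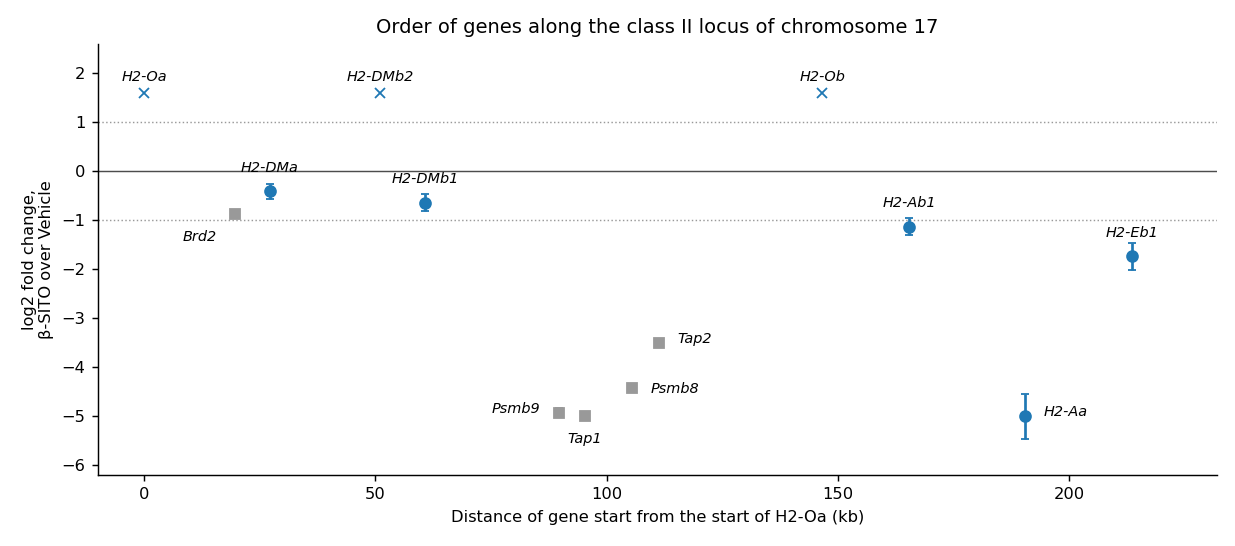
log2 fold change (HO + β-SITO over HO + Vehicle, whiskers SE from edgeR) of the tested protein-coding genes of the class II locus against the distance of their start from that of H2-Oa in kb. Circles are class II members, squares are other genes, crosses at the top mark the members too low to test, and dotted lines mark 2-fold; the 4 class I route genes at 89.6 to 111.2 kb lie between -3.50 and -5.01, below H2-DMa, H2-DMb1, H2-Ab1 and H2-Eb1.

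Upstream of Ciita, the list of 11 genes for the interferon-γ receptor, its kinases and the factors of the Ciita promoters had 10 tested genes. Of these, 2 were DEGs lower and 1 a DEG higher, against 10.1% and 12.8% of all tested genes. The number higher was near the share of all tested genes. The median log2FC was -0.67 against -0.01 for all tested genes. The DEGs that were lower were Irf1 (log2FC -3.51), a transcription factor of the interferon response, and Jak2 (-3.47), a kinase of the interferon-γ receptor. Irf1 went from 302.8 ± 8.78 to 26.6 ± 1.26 CPM (SD, n = 3; edgeR, adjusted p = 6.05e-16). The receptor genes Ifngr1 (-0.48) and Ifngr2 (-0.79) and the kinase gene Jak1 (-0.78) passed the adjusted p without reaching 2-fold. Prdm1, which encodes a repressor of the Ciita promoter, was the DEG that was higher (1.28). Spi1, the PU.1 factor of myeloid cells, had a log2FC of 0.47 that was under 2-fold. Irf2 (-0.73), Irf8 (-0.61) and Usf1 (-0.53) were lower, past the adjusted p but under 2-fold. Irf4 was too low to test, with 1, 1 and 0 counts in V1, V2 and V3 and 14, 5 and 7 in T4, T5 and T6.

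Genes for the proteins that bind the X and Y boxes printed above mostly stayed under 2-fold. Of the 7 genes of this list, 1 was a DEG lower and none was higher, against 10.1% and 12.8% of all tested genes. The median log2FC was 0.05. Rfx5, a subunit of the RFX complex, was that DEG, at 24.1 ± 2.09 against 11.9 ± 0.586 CPM (SD, n = 3) and a log2FC of -1.02 (edgeR, adjusted p = 1.04e-07). Its call was lost without V1, without T6, with upper quartile scaling, with library size alone and with glmTreat, so it stood at the edge of the 2-fold limit. Rfxap (0.43), Creb1 (0.34), Nfyb (-0.30) and Nfyc (-0.41) passed the adjusted p under 2-fold, and Rfxank (0.10) and Nfya (0.05) did not pass.

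Downstream, of 9 genes for endosomal enzymes that cut antigen and the invariant chain, 1 was a DEG lower and 1 a DEG higher, with a median log2FC of 0.36. These shares are near those of all tested genes, 10.1% lower and 12.8% higher. Sppl2a, the protease that clears the last membrane stub of the invariant chain, fell from 361.2 ± 19.7 to 89.2 ± 1.51 CPM (SD, n = 3), a log2FC of -2.02 (edgeR, adjusted p = 1.68e-13). Lgmn, an asparagine endopeptidase, rose by 1.04 on the log2 scale (edgeR, adjusted p = 3.46e-10). Ctss, which makes the final cuts in the invariant chain, had 97.0, 120.4 and 122.0 CPM in V1, V2 and V3 and 174.3, 141.0 and 140.3 CPM in T4, T5 and T6. Its groups did not overlap, and its log2FC was 0.42 (edgeR, adjusted p = 9.74e-04). Ctsb (0.57), Ctsd (0.57) and the thiol reductase gene Ifi30 (0.36) also passed the adjusted p under 2-fold. In the lower direction, Ctsz (-0.74) and Ctsh (-0.18) did so too.

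At the cell surface, Marchf1, the ubiquitin ligase that sends class II for degradation, was the 1 DEG of the 3 turnover genes (log2FC -1.07). Its call was lost without V2 or V3, with upper quartile scaling, with library size alone and with glmTreat. Cd83, which opposes Marchf1, had a log2FC of 0.77 that was under 2-fold. All 4 costimulatory genes were DEGs lower, with a median of -2.60, among them Cd40 (-5.17) and Cd86 (-1.78). Cd80 stood at the 2-fold limit, and 3 of the 4 were called with glmTreat, DESeq2 size factors, upper quartile scaling, library size alone or no count filter, and without V3, T4 or T5. For comparison, all 12 genes of the class I route were DEGs lower, with a median of -3.56 and a range from -5.27 for Nlrc5, the class I counterpart of Ciita, to -2.03 for Erap1. The members and all of these lists were compared on the same 6 libraries. Over all tested genes, 10.1% were DEGs lower and 12.8% were DEGs higher.

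**Figure D4:**
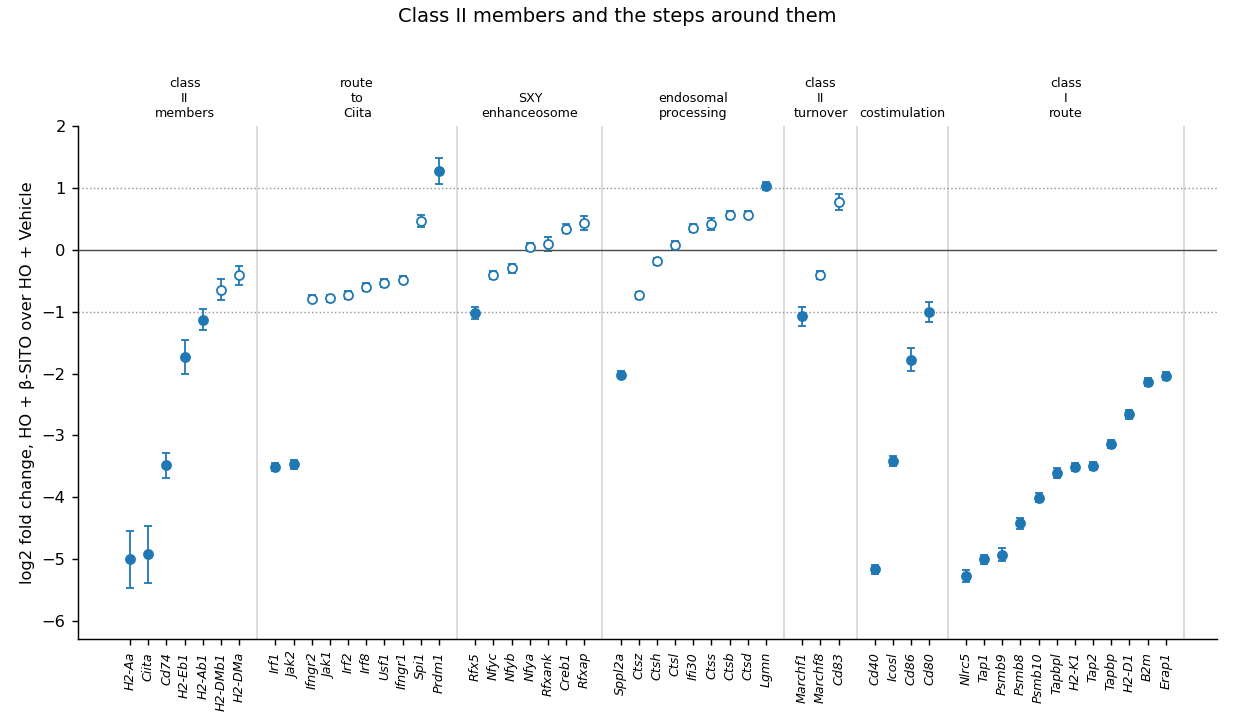
log2 fold change (HO + β-SITO over HO + Vehicle, whiskers SE from edgeR) of the tested class II members and of the tested genes of 6 lists for the steps around them. Filled points are DEGs, open points are not, and dotted lines mark 2-fold; the class I route and costimulation lists are filled throughout, and 6 of the 7 X and Y box factors (SXY enhanceosome) lie within 2-fold.

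Markers of other cell types moved in both directions. For comparison, 12.8% of all tested genes were DEGs higher and 10.1% were DEGs lower. Of 15 macrophage markers, 10 were DEGs higher with β-SITO and 2 were DEGs lower (median log2FC 1.27). Their summed level was 1466 to 1593 CPM in the vehicle libraries and 3092 to 3795 CPM in the β-SITO libraries. Mrc1, a scavenger receptor, rose most (4.79), and Fcgr1 (-2.18) and Cd14 (-1.56) fell. All 7 endothelial markers were DEGs higher (198.3 to 228.2 CPM in sum against 789.7 to 833.1). Fibroblast markers had no DEG among 7 (28620 to 30065 CPM in sum against 43469 to 44449). Cardiomyocyte markers had 2 DEGs higher among 10, and their sums overlapped (5686 to 6726 CPM against 5181 to 8823), which shows cardiomyocyte transcripts in every library beside those of other cardiac cells. The part of these shifts in the class II values was not tested.

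Defining markers of dendritic cells, B cells and T cells were at or near 0 counts for part of each list. Of 9 dendritic cell markers, 5 had at most 3 counts in every library (Flt3, Xcr1, Cd209a, Siglech and Ccr7), and of the 4 tested, 1 was a DEG higher and 1 lower, with summed levels of 16.9 to 19.2 CPM in the HO + Vehicle and 19.9 to 21.9 CPM in the β-SITO libraries. Of 7 B cell markers, Cd79a and Fcmr had at most 3 counts in every library and 2 were tested, 1 a DEG higher and 1 lower. Their summed levels were 14.6 to 15.1 CPM and 5.55 to 6.18 CPM, and most of the vehicle sum was Pax5. Of 6 T cell markers, Cd3d, Cd3e and Cd3g had 0 counts in all 6 libraries, 2 were tested and 1 was a DEG higher, and the sums were 0.930 to 1.52 CPM and 3.55 to 3.93 CPM. Among the DEGs of the dendritic and B cell lists, Batf3, Clec9a and Pax5 passed the filter on low counts through 1 group only. These calls are no support by themselves. The shares over all tested genes were 10.1% DEGs lower and 12.8% DEGs higher.

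**Figure D5:**
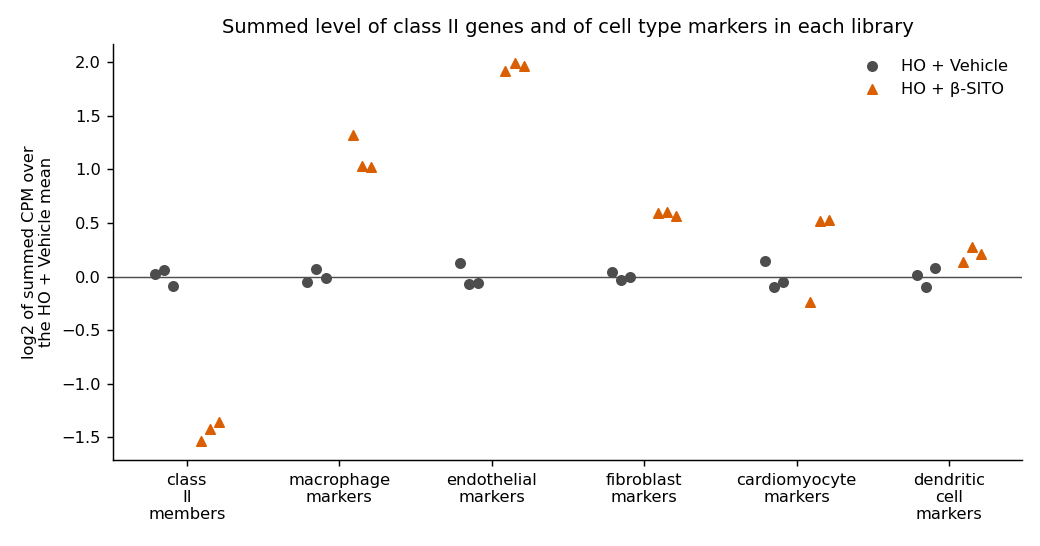
Summed CPM of the class II genes and of 5 lists of cell type markers in each library, as the log2 ratio to the mean of the vehicle libraries. The class II sum of the β-SITO libraries (triangles) lies below that of the vehicle libraries (circles), while the macrophage, endothelial and fibroblast sums lie above and T4 stands apart from T5 and T6 in the cardiomyocyte sum.

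By Euclidean distance of log2 CPM, centred per gene over the 6 libraries, the genes nearest to Cd74 among 10992 with a mean of at least 100 counts were Adamts14, Rbpj-ps3, Angptl4, A4galt and Icosl, at distances of 0.29 to 0.34. With Ciita, among 13534 genes with a mean of at least 20 counts, they were Impg2, Misp, Slc25a18, Slc1a2 and the class I-like gene H2-M2 (0.50 to 0.82). Cd74 and Ciita lay 1.17 apart, and Cd74 lay 2.25 to 3.60 from the other tested members. With 2 groups of 3 libraries such likeness is in part likeness in the size of the group difference. For Ciita (log2FC -4.93) it was not that alone. H2-Aa, with a log2FC of -5.01, lay 2.59 from Ciita, while Impg2, with -3.80, lay 0.50 from it. The distances are given as a description.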

How the data were processed

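The authors deposited raw counts per gene from featureCounts, without normalization, for 6 libraries. The submitters' processing notes name FastQC, HISAT2, featureCounts and the build GRCm39, and versions, annotation release and strand setting are not given in the sources used here. The table's coordinates are given as deposited. Of 52029 gene identifiers shared with GENCODE vM21 (GRCm38), 2.81% have the same start, so that annotation served for exon lengths and transcript letters only. The exon length of a gene joins all its annotated exons, so levels and ratios per kilobase depend on the annotation. Promoter letters are from RefSeq on GRCm38.p6.

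From the deposited counts, genes were filtered with filterByExpr (minimum count 10, in 3 libraries), scaled with TMM and tested with edgeR 4.0.16 (quasi-likelihood, group as the only term, R 4.3.3). The SE is the absolute log2 fold change divided by the square root of F. The TMM factors were 0.945 to 0.956 for vehicle and 1.05 to 1.06 for β-SITO. DESeq2 1.42.0, which the study used, limma 3.58.1, other scalings, filters and fold limits and each library left out were alternatives. The fits were checked on simulated counts. Exact tests used SciPy 1.17.1. Intervals cover counting error only.

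The members and all lists were chosen with earlier results of these data known. Named genes are the members, the genes of the lists and of the locus, and the 5 nearest to Cd74 and to Ciita. Library names in the HO + β-SITO group carry a suffix that those of the HO + Vehicle group lack, so a separate preparation, if any, cannot be told apart from the treatment. Some genes of the lists are not reported here, and the lists were counted without them.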

Additional observations from a re-analysis of the deposited data

How the results depend on the processing

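The 15 alternatives gave 4 to 7 class II members as DEGs lower, all within 1.5 times the 5 reported, but not always the same genes. H2-Oa was called without the count filter, with a filter on a mean of 10 counts in a group, and without V3, T4, T5 or T6. Without T4 it took the place of H2-Ab1 among the 5. Where a count filter was used, H2-Oa, H2-Aa and Ciita passed it only through the vehicle libraries, where they were high. Their calls in those fits are no support by themselves. H2-Aa, H2-Eb1, Cd74 and Ciita were called in each alternative, and the log2 fold changes ranged from -6.97 to -4.42 for H2-Aa, -1.93 to -1.51 for H2-Eb1, -3.69 to -3.33 for Cd74 and -6.40 to -4.38 for Ciita. H2-Ab1 was not called with glmTreat (-1.13), upper quartile scaling (-0.99), library size only (-0.98) or without T4, with -1.30 to -0.90 over the fits that each left out 1 library. The adjusted p of H2-DMa was over 0.05 with DESeq2, both of these scalings and no count filter, and without V1, V2, V3, T5 or T6. It was also over 0.05 with glmTreat, which tests against a 2-fold change. The costimulation list gave 3 to 4 genes lower. Without the count filter 1 member, H2-DMb2, was a DEG higher. Without the fold limit 9892 genes passed in place of 3380, among them H2-DMa and H2-DMb1, and the lists then gave 3 lower and 2 higher X and Y box factors, 8 lower and 2 higher genes of the route to Ciita, 3 lower and 5 higher endosomal genes, and 2 lower and 1 higher turnover genes. With glmTreat 0 X and Y box factors and 0 turnover genes were lower and 0 genes of the route to Ciita and 0 endosomal genes were higher. With upper quartile scaling and with library size only, 0 X and Y box factors and 0 turnover genes were lower. These scalings raised the median log2 fold change of all tested genes by 0.14 and 0.15, with the sign of each called member kept. Without the filter 2 genes of the route to Ciita were higher. Leaving out 1 library gave 0 to 1 lower X and Y box factors and 0 to 1 lower turnover genes, and the class II share stayed 2.37 to 2.53 times lower. The cause of these changes was not tested. No paired analysis was possible because the groups share no replicate number. Counts under about 10 a library limit H2-DMb2, H2-Oa and H2-Ob, and the HO + β-SITO values of H2-Aa and Ciita.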

Other observations

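Among the markers of other class II cells, single genes stood out from the rest of their list. Pax5, a B cell transcription factor, had 198, 203 and 195 counts in V1, V2 and V3 and 0 in T4, T5 and T6, at least 73.8-fold lower against a floor of 3 counts in a library, while Ms4a1 had 4, 7 and 4 counts against 0, 0 and 0. Cd22, a B cell surface lectin, went the other way with 27, 22 and 27 counts against 99, 94 and 98 (log2 fold change 1.70, edgeR, adjusted p = 7.08e-07). Batf3, a factor of cross-presenting dendritic cells, had 21, 26 and 29 counts against 7, 5 and 4 (log2 fold change -2.45, adjusted p = 1.41e-05), whereas Clec9a, a receptor of the same cells, had 2, 5 and 2 against 20, 23 and 18 (log2 fold change 2.48, adjusted p = 1.23e-04). Pax5 and Batf3 passed the filter on low counts only through the vehicle libraries, and Clec9a only through the β-SITO libraries. Their calls are therefore no support by themselves. All of these genes were picked after their values had been seen, and the cells they came from were not measured.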
